A study of Mus musculus with 4 samples.

Results

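Natural killer (NK) cells without Cd3 were examined in brain tumors of 4 mice. They were defined by their transcripts: a cell was taken as an NK cell when it had at least 1 unique molecular identifier (UMI, 1 captured transcript) of at least 3 of the 6 genes Ncr1, Klrb1c, Gzma, Nkg7, Il2rb and Prf1. It also had to have 0 UMIs of Cd3d, Cd3e and Cd3g, at most 1 UMI of the microglia and macrophage genes C1qa, C1qb and C1qc, and fewer than 5 UMIs of the transgene transcripts FLUC and humanNMYC. This rule found 65 NK cells among 10975 kept cells, or 0.592%.

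The tumors arose in mice with the genotype hGFAP-cre::TP53Fl/Fl::lsl-MYCN, a model of pediatric high-grade glioma of the MYCN subclass in which Cre recombinase under the human GFAP promoter acts in neural precursor cells, removes Trp53 and switches on human MYCN together with firefly luciferase. Mice 4 and 5 were 43 days old (P43) and mice 6 and 7 were 70 days old (P70), all 4 carried the same alleles, and each contributed 1 library. Minced tumors were digested with papain, depleted of red blood cells, frozen, thawed and sorted for cells that excluded a dead-cell dye, and these were loaded for droplet-based 3′ RNA sequencing without enrichment for immune cells. In the order of the mice, the kept cells numbered 3319, 1456, 2731 and 3469, and the total library counts were 15044263, 13106786, 18698291 and 40621958 UMIs.

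NK cells are innate lymphocytes that kill infected or transformed cells without a rearranged antigen receptor. Their activity is set by the balance of activating receptors, which see stress ligands or signal through adaptors with activation motifs, and inhibitory receptors, which see major histocompatibility complex (MHC) class I proteins. They kill by releasing perforin and granzymes, and they recruit dendritic cells and other leukocytes with chemokines. The healthy brain parenchyma holds few of them, and those in brain tumors are thought to enter from the blood.

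Transcripts of Y-linked genes went against the labelled sex in both P43 libraries. In kept cells with fewer than 5 transgene UMIs they reached 171 CPM (UMIs of a gene divided by all UMIs of the cells considered and multiplied by 1000000) in mouse 4, which was labelled female, and 0.505 CPM in mouse 5, which was labelled male. Mouse 6, labelled male, had 186 CPM and mouse 7, labelled female, had 0. Both doubtful libraries belong to the same age, so no comparison of age depends on which is which, and sex was used in none. No cell barcode of an NK cell was shared between libraries, although 12 barcodes of kept cells were.

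NK cells were unevenly spread over the mice. Mouse 4 held 11 NK cells, or 0.331% of its kept cells (95% exact Clopper-Pearson interval 0.166% to 0.592%). Mouse 5 held 8, or 0.549% (0.238% to 1.08%). Mouse 6 held 45, or 1.65% (1.20% to 2.20%), and mouse 7 held 1, or 0.0288% (0.00073% to 0.161%). Mouse 6 alone supplied 69.2% of all NK cells, and the highest and the lowest share both came from P70. The mean share was 0.440% ± 0.154 at P43 and 0.838% ± 1.14 at P70 (SD, n = 2 mice each), a difference of 0.398 percentage points that was smaller than the spread between the P70 mice (two-sided exact permutation test, p = 1.0, where the smallest p that 2 against 2 mice allow is 0.333). Without mouse 6 the difference turned to -0.412 percentage points. These intervals cover counting error only, and the makeup of the libraries differed: cells with at least 5 UMIs of FLUC and humanNMYC, hereafter reporter-positive tumor cells, numbered 335, 233, 370 and 2488 in mice 4, 5, 6 and 7. The name rests on transgene transcripts alone, and whether each such cell was malignant was not tested. The limit also depends on depth, and kept cells had a median of 1419, 4200.5, 4587 and 10450 UMIs in these mice.

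NK cells were also set against T cells, a ratio into which the number of tumor cells does not enter. T cells were defined by at least 2 UMIs of Cd3d, Cd3e and Cd3g under the same limits on C1q and transgene transcripts, and 46, 126, 51 and 14 were found in mice 4, 5, 6 and 7. NK cells made up 19.3% (95% interval 10.0% to 31.9%) of NK plus T cells in mouse 4 and 5.97% (2.61% to 11.4%) in mouse 5. At P70 they made up 46.9% (36.6% to 57.3%) in mouse 6 and 6.67% (0.169% to 31.9%) in mouse 7. Mouse 6 was again highest, and the P43 and P70 mice overlapped. The mean was 12.6% ± 9.42 at P43 and 26.8% ± 28.4 at P70 (SD, n = 2 each), a difference of 14.1 percentage points (two-sided exact permutation test, p = 0.667) that turned to -5.97 without mouse 6.

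**Figure D1:**
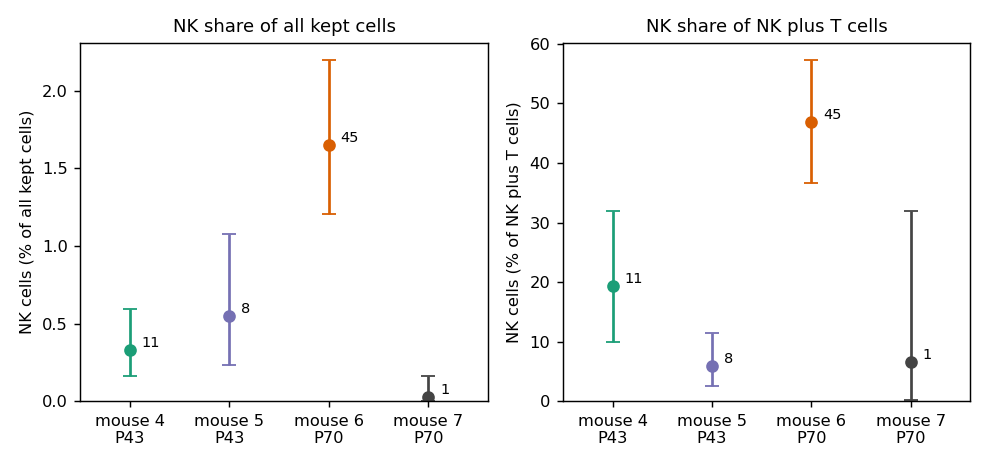
NK cells as a percent of kept cells and as a percent of NK plus T cells in each of the 4 mice, with 95% exact binomial intervals as bars and the number of NK cells beside each point. Mouse 6 (P70) stands highest in both panels, at 1.65% and 46.9%, and mouse 7 of the same age has 1 NK cell.

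The 6 genes that chose the cells are described here without a test. Ncr1 encodes the natural cytotoxicity receptor NKp46, and Klrb1c the NK1.1 antigen. Gzma encodes granzyme A and Prf1 the pore-forming protein perforin. Nkg7 encodes a protein of cytotoxic granules, and Il2rb the receptor chain shared by interleukin-2 and interleukin-15, which sustain NK cells. All 6 genes were seen in 18 NK cells, 5 in 16, 4 in 18 and 3 in 13. Just outside the gate, 16 cells without Cd3 UMIs had 2 of the 6 genes, and 1 cell with at least 3 of them had a single Cd3 UMI. Another 21 cells with at least 3 of the 6 genes had 2 or more Cd3 UMIs and were counted as T cells, so a single cell lay between the limits of the 2 classes.

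Short stretches upstream of Ncr1 and Gzma are shown because the data rest on these genes and both carry letters known from binding motifs of transcription factor families active in NK cells. Capitals mark TCACAC or its reverse complement GTGTGA, the core of T-box sites, and ACCACA or its reverse complement TGTGGT, the core of RUNX sites. The sequences are the 100 bases before the RefSeq gene start on the strand of the gene, from GRCm38.p6, at chr7:4337615-4337714 (plus strand) for Ncr1 and at chr13:113100982-113101081 (minus strand) for Gzma.
Ncr1: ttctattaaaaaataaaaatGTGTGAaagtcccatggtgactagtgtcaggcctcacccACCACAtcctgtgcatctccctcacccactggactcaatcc
Gzma: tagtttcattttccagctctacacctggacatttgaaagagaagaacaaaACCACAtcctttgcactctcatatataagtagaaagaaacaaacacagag
Both stretches hold the RUNX letters, and Ncr1 also holds the T-box letters. Within 250 bases before the start, on either strand, the RUNX letters were in all 5 gate genes that had an entry (all but Il2rb) and in 14.2% of all 27025 promoters, while the T-box letters were in 2 of the 5 and in 12.2% of all promoters. The letters of both motifs overlapped in 0.0962% of promoters. A match is a description of these letters and not a binding site.

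Gzma was the most abundant of the gate genes. Its level, over the summed UMIs of the NK cells of a mouse, was 4305 CPM in mouse 4, 9637 in mouse 5 and 7793 in mouse 6, and it was seen in 8 of 11, 8 of 8 and 44 of 45 NK cells. Single cells ranged widely, from 0 to 41 Gzma UMIs in mouse 4, from 14 to 83 in mouse 5 and from 0 to 82 in mouse 6. Gzma lies at chr13:113093825-113100981 (GRCm38, minus strand). The receptor gene Ncr1, at chr7:4337724-4345164 (plus strand), had 750.0, 678 and 392 CPM in mice 4, 5 and 6. It was seen in 9 of 11, 8 of 8 and 20 of 45 NK cells, and was thus missing from most NK cells of mouse 6. Prf1 was even between mice, at 667, 678 and 716 CPM, and so was Nkg7, at 1694, 1978 and 1961 CPM.

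Depth limits these shares of cells, since NK cells had a median of 2661, 3269 and 2041 UMIs in mice 4, 5 and 6, and 2092 UMIs were read from the single cell of mouse 7. With every cell thinned to 1000 UMIs, Gzma was seen in 88.1% of NK cells, Nkg7 in 72.9%, Il2rb in 61.0%, Prf1 in 55.9%, Klrb1c in 37.3% and Ncr1 in 35.6%. The gate genes were seen in at most 0.0935% of endothelial cells, 0.0590% of reporter-positive tumor cells and 0.145% of C1q-positive myeloid cells thinned in the same way, types that should lack them. Of the 65 NK cells, 50 had Ncr1 or Klrb1c, the genes best known as NK markers, and 15 had neither, 14 of them in mouse 6 and 1 in mouse 4. Within mouse 6, cells with and without these genes had 1712 and 1825 CPM of the adaptor gene Tyrobp, 2223 and 1994 CPM of the adaptor gene Fcer1g and 1118 and 1183 CPM of the receptor gene Klrk1. The receptor gene Klre1 was at 815 and 574 CPM, Prf1 at 801 and 507 CPM, Gzmb, which encodes granzyme B, at 2057 and 2535 CPM and the receptor gene Klra8 at 276 and 439 CPM, all without a test. Neither class had a UMI of Cd8a or Cd8b1, genes of the T cell coreceptor CD8.

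**Figure D2:**
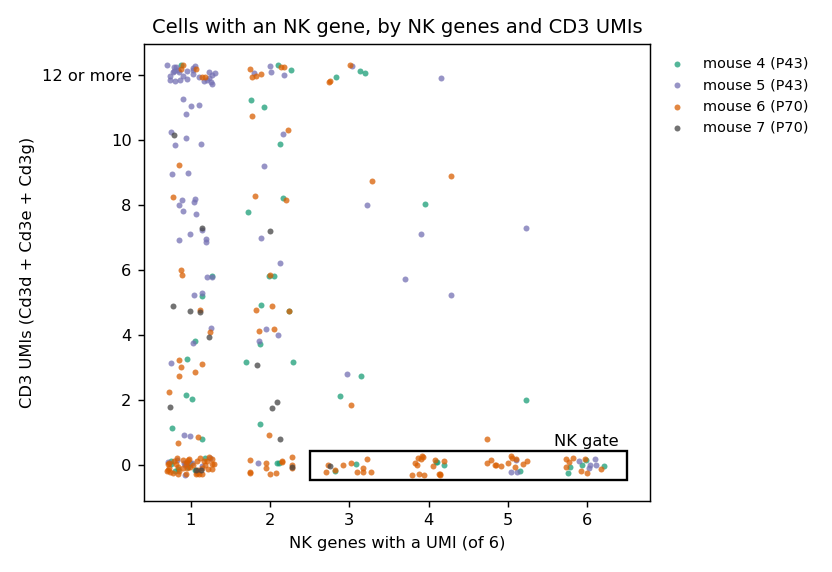
Each point is 1 kept cell with at least 1 of the 6 NK genes, by the number of these genes seen (horizontal, with scatter added) and its UMIs of Cd3d, Cd3e and Cd3g (vertical, values of 12 or more drawn together), colored by mouse, under the limits on C1q and transgene UMIs. The box holds the 65 NK cells, and among cells with at least 3 NK genes 1 has a single Cd3 UMI and 21 have 2 or more.

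Genes of other cell types were low in the NK cells. Of 13 T cell genes outside the gate, 5 had a UMI, 36 UMIs in all in 23 cells, and the most abundant were Lef1 with 15 UMIs and Cd28 with 11. Cd4, Cd8a, Cd8b1, Cd5, Cd6, Foxp3, Bcl11b and Themis were at 0 in every NK cell. The T cell receptor genes of the planned list, Trbc1, Trdc, Tcrg-C1, Tcrg-C2 and Tcrg-C4, were not among the counted genes and could not be checked. Of the oligodendrocyte genes 6 of 8 were seen, with 85 UMIs in 23 cells, 77 of them from mouse 6, while Bcas1 and Mog were at 0. In mouse 6, 3 cells with at least 3 oligodendrocyte genes held 61 of these 77 UMIs. Microglia and macrophage genes gave 32 UMIs, of which Apoe had 15, with Tmem119, P2ry12, Adgre1 and Mrc1 at 0. Dendritic cell genes gave 57 UMIs, of which Cd74 had 36, and endothelial genes gave 31, of which Pecam1, also known from leukocytes, had 18, with Flt1 and Cdh5 at 0. Neutrophil genes gave 5 UMIs, mural cell genes 10, B cell genes 2, neuroblast genes 2, mast cell genes 1 and red blood cell genes 0.

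NK cells were next compared with T cells of the same tumors, the other class of lymphocytes with cytotoxic members. UMIs were summed over the cells of each class in each mouse, and genes were tested with edgeR's quasi-likelihood test with the mouse as a block. The comparison rests on the mice with at least 10 cells of each class, mice 4 and 6, and leaves 1 residual degree of freedom. The test pools spread across genes, so its p-values can be very small and do not measure how well a difference repeats between mice. Mouse 5, with 8 NK cells, was added in a second fit chosen after the data had been seen. The gate genes were kept out of the calls, but the classes were separated by transcripts of the same cells, so the calls describe how the 2 gated classes differ and do not bear on whether they are distinct. Of 2128 genes tested at an adjusted p of 0.05, 57 were called higher in NK cells (2.68%) and 40 lower (1.88%). With mice 4, 5 and 6, 43 of 2053 were called higher (2.09%) and 17 lower (0.828%), of which 42 and 16 were also called in mice 4 and 6. The median log2 difference of all tested genes was -0.05 in mice 4 and 6. A gene was tested when its counts in either class were high enough, so a member of a list that is high in NK cells and near 0 in T cells could enter while one near 0 in both could not, and the list counts below describe the members tested and nothing of the rest. The calls were also set against an alternative without NK and T cells that carried at least 3 genes of another lineage, in which 29 genes were called in mice 4 and 6. DESeq2 called 9 genes higher in mice 4 and 6, Ccl4, Ccl5, Eomes, Fcer1g, Irf8, Klre1, Klrk1, Tyrobp and Xcl1. It called 3 lower, Ifi27l2a, Ly6a and Ly6c2, and the other calls of edgeR in these mice were not made by DESeq2.

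Activating receptors and their adaptors were counted first. Of 14 such genes 9 were tested, 4 were called higher and 0 lower, and their median log2 difference was 2.26. Tyrobp, which encodes the adaptor DAP12, had 1333, 2204 and 1745 CPM in NK cells of mice 4, 5 and 6 and 104, 38.2 and 210 CPM in T cells. All NK values lay above all T values (log2 difference 3.19 ± 0.41 (SE), adjusted p = 1.12e-11 in edgeR). Fcer1g, which encodes the common gamma chain of Fc receptors and an adaptor of NKp46, had 1556, 2035 and 2157 CPM in NK cells against 462, 122 and 195 in T cells (log2 difference 2.53 ± 0.38, adjusted p = 1.23e-08). Klrk1, which encodes the activating receptor NKG2D, had 861, 933 and 1137 CPM against 305, 90.6 and 129 CPM (2.26 ± 0.42, adjusted p = 7.18e-06). Klrc2, which encodes the activating receptor NKG2C, was the fourth (2.75 ± 0.49, adjusted p = 2.44e-06). The groups did not overlap for any of these 4 genes in mice 4, 5 and 6. Without cells carrying RNA of another lineage Tyrobp was called (adjusted p = 0.0174), while Fcer1g (0.109), Klrk1 (0.108) and Klrc2 (0.179) were not by the same adjusted p. Hcst, the adaptor DAP10 through which NKG2D signals, was not called, with 472, 311 and 499.9 CPM in NK cells and 462, 460.4 and 250.2 CPM in T cells.

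In a list of inhibitory and related receptors, 5 of the 5 genes tested, of 9 listed, were called higher, with a median log2 difference of 2.94. The list is called inhibitory below for short, and whether each member inhibits NK cells was not tested. Klrd1, which encodes CD94, the partner of the NKG2 receptors, had 972, 1102 and 696 CPM in NK cells against 313, 62 and 166 CPM in T cells (log2 difference 1.75 ± 0.40, adjusted p = 9.12e-04). Klre1, a receptor of the same family, had 917, 961 and 745 CPM against 141, 57.2 and 18.4 CPM (3.67 ± 0.47, adjusted p = 1.02e-11). Klrb1b, which encodes an inhibitory receptor for Clec2 family ligands, had 278, 226 and 216 CPM in NK cells, and its 3 T cell UMIs in mice 4 and 6 put the ratio of NK to T level at 31.4 (95% counting interval 9.82 to 160.0). The others were Klrc1, which encodes NKG2A (2.18 ± 0.65, adjusted p = 0.0221), and Klrb1a (2.94 ± 0.88, adjusted p = 0.0225). The NK and T values of Klrd1, Klre1 and Klrc1 did not overlap in mice 4, 5 and 6. Of the 5 calls, those of Klre1 and Klrb1b remained without cells carrying RNA of another lineage, and those of Klrd1 (adjusted p = 0.0764), Klrc1 (0.213) and Klrb1a (0.179) were lost.

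Ly49 receptors, the Klra genes, are the rodent receptors for MHC class I, and of 11 such genes 8 had a UMI in NK cells, 5 were tested and 4 were called higher. Klra4 had 361, 424 and 431 CPM in NK cells of mice 4, 5 and 6 against 37.2, 7.16 and 0 CPM in T cells (log2 difference 4.79 ± 0.62, adjusted p = 1.12e-11). Klra3 had 444, 198 and 176 CPM against 0, 4.77 and 0, and its level in NK cells of mice 4 and 6 was at least 33.3-fold higher than the limit that 3 UMIs set in T cells (adjusted p = 8.91e-11). Klra7 (2.57 ± 0.56, adjusted p = 3.91e-04) and Klra9 (3.01 ± 0.58, adjusted p = 2.59e-05) were the remaining ones, and both were lost without cells carrying RNA of another lineage (adjusted p = 0.213 and 0.170). Klra8, which encodes the activating receptor Ly49H that some mouse strains lack, was at 0 in NK cells of mouse 4, where 3 UMIs correspond to 83.3 CPM, and at 537 and 323 CPM in mice 5 and 6. Klra1 had 216 CPM in mouse 6 and 0 in mice 4 and 5. Ly49 and other Klr genes are near-identical in parts, so reads may have been split between them or left out in counting, and the values of single members are uncertain. The 22 Klr genes with a UMI in NK cells span 1778 kb at chr6:128609227-130386874 (GRCm38), the natural killer gene complex, and 11 of the 14 tested genes in this span were called higher and 0 lower. The exceptions were Cd69, Clec2d and Klra1.

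**Figure D3:**
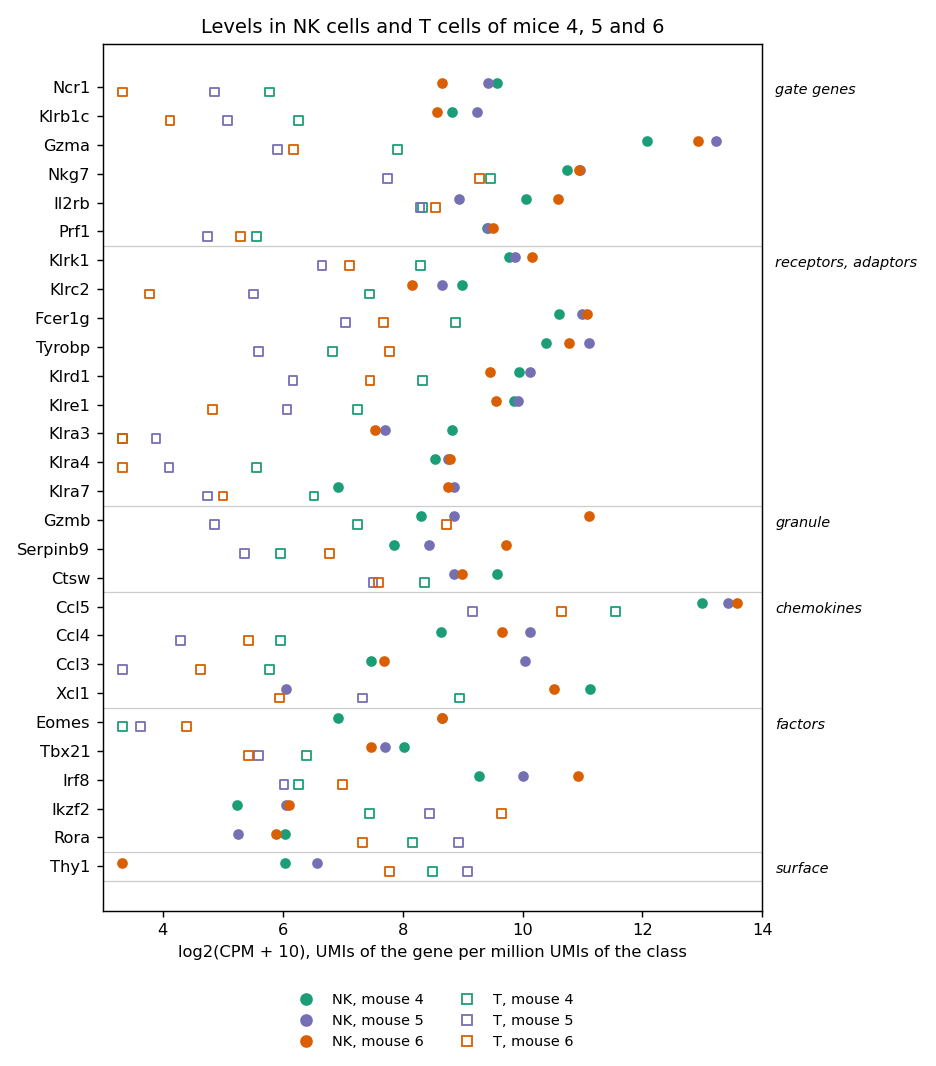
Level of the gate genes and of receptor, granule, chemokine, transcription factor and surface genes as log2(CPM + 10) in NK cells (filled circles) and T cells (open squares) of mice 4, 5 and 6, 1 point for each class in each mouse. Tyrobp stands at 1333 to 2204 CPM in NK cells and 38.2 to 210 CPM in T cells, Gzmb is highest in NK cells of mouse 6 at 2196 CPM, and Xcl1 overlaps between the classes.

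Genes of the cytotoxic granule were called higher in 4 of the 9 tested, of 16 in the list, with a median log2 difference of 1.23. Gzmb, which encodes granzyme B, had 306, 452 and 2196 CPM in NK cells of mice 4, 5 and 6 and 141, 19.1 and 416 CPM in T cells (log2 difference 1.86 ± 0.42, adjusted p = 8.09e-04). Within each of these mice it was higher in NK than in T cells, although the T cells of mouse 6 lay above the NK cells of mouse 4. Serpinb9 and Serpinb6b, whose products inhibit granule proteases and can protect the cell that makes them, had log2 differences of 2.67 ± 0.47 (adjusted p = 1.99e-06) and 2.55 ± 0.46 (adjusted p = 3.67e-06). Fasl, which encodes the death ligand of the Fas receptor, had 111, 84.8 and 323 CPM in NK cells and 52.1, 35.8 and 47.8 CPM in T cells (2.10 ± 0.56, adjusted p = 0.00767), a call that was lost with mouse 5 added (adjusted p = 0.0729). Gzmb (adjusted p = 0.108) and Fasl (0.170) were not called without cells carrying RNA of another lineage, where Serpinb9 and Serpinb6b were. Gzmk, which encodes granzyme K, and Gzmm were at 0 in all NK cells.

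Chemokines and cytokines were called higher in 5 of the 7 tested, of 12, with a median of 2.09. Ccl5, a chemokine that attracts T cells and myeloid cells, was second only to Tmsb4x in the mean level over NK cells of mice 4, 5 and 6. Ribosomal protein and mitochondrial genes were left out of this ranking. It had 8139, 11022 and 12253 CPM (log2 difference from T cells 2.09 ± 0.23, adjusted p = 6.59e-16). Ccl4 had 389, 1102 and 794 CPM in NK cells against 52.1, 9.54 and 33.1 CPM in T cells (3.80 ± 0.49, adjusted p = 1.12e-11), and Ccl3 had 167, 1046 and 196 CPM against 44.7, 0 and 14.7 CPM (2.74 ± 0.71, adjusted p = 0.00506). Neither gene overlapped between the classes. Xcl1, which attracts cross-presenting dendritic cells, varied widely among NK cells, at 2222, 56.5 and 1461 CPM in NK cells against 484, 150.3 and 51.5 CPM in T cells. It was called in mice 4 and 6 (3.23 ± 0.41, adjusted p = 7.42e-12) and not with mouse 5 added (adjusted p = 0.124), where NK cells lay below T cells. Tgfb1 was called in mice 4 and 6 (adjusted p = 0.00108) and not with mouse 5 added (0.164). With all 4 mice both were called, Xcl1 at an adjusted p of 3.32e-04 and Tgfb1 at 0.0333. Ccl3 (adjusted p = 0.170) and Tgfb1 (0.175) lost their calls without cells carrying RNA of another lineage, and Ccl4, Ccl5 and Xcl1 did not. Ifng, which encodes interferon gamma, had 417, 452 and 137 CPM in NK cells and 402, 143 and 44.2 CPM in T cells and was not called. Csf2 and Il10 were at 0 in NK cells.

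Transcription factors were called in both directions, 3 higher and 2 lower of 12 tested among 17, with a median of 1.01. Eomes, a T-box factor of conventional NK cells, had 111, 396 and 392 CPM in NK cells against 0, 2.39 and 11 CPM in T cells, and with 3 T cell UMIs in mice 4 and 6 the ratio of levels was 43.2 (95% counting interval 13.8 to 217). Tbx21, which encodes the T-box factor T-bet, had 249.99, 198 and 167 CPM against 74.5, 38.2 and 33.1 CPM (log2 difference 1.93 ± 0.57, adjusted p = 0.0202). Irf8, an interferon regulatory factor, had 611, 1017 and 1931 CPM against 67.0, 54.9 and 118 CPM (3.62 ± 0.46, adjusted p = 7.28e-12). In all 3 genes the NK values lay above the T values in every mouse compared. Ikzf2, which encodes Helios, was lower in NK cells, with 27.8, 56.5 and 58.8 CPM against 164, 339 and 795 CPM (-3.66 ± 0.61, adjusted p = 5.16e-07), and so was Rora (-1.97 ± 0.60, adjusted p = 0.0285). Eomes, Irf8 and Ikzf2 were called without cells carrying RNA of another lineage as well, and Tbx21 (adjusted p = 0.175) and Rora (0.170) were not. Zfp683, which encodes the tissue-residency factor Hobit, was at 0.

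Cytokine receptors, homing genes and markers of maturation were mostly not called. Of 8 tested cytokine receptor genes, with a median of 0.78, 1 was higher, Il18rap, a chain of the interleukin-18 receptor (1.81 ± 0.46, adjusted p = 0.00393), and 1 was lower, Il7r, the receptor for interleukin-7 (-2.39 ± 0.51, adjusted p = 2.95e-04), with 83.3, 0 and 78.4 CPM in NK cells against 305, 692 and 438 CPM in T cells. In the alternative without cells carrying RNA of another lineage Il7r was called and Il18rap was not (adjusted p = 0.108). Of 7 tested homing genes 1 was called higher and 0 lower, with a median of 0.999. Of 6 tested genes of immature NK cells 1 was called higher and 1 lower, the latter being Thy1, with 2 UMIs in NK cells of mice 4 and 6 (ratio 0.0566, 95% counting interval 0.00676 to 0.210), and the list median was -0.40. Of the 3 tested mature NK cell genes 0 were called (median 0.21), and of the 5 tested genes of type 1 innate lymphoid cells, tissue-resident relatives of NK cells, 0 were called (median -1.08). All genes of the latter list were at 0 in NK cells of mouse 5. Maturation is often read from Cd27 and Itgam, which encodes CD11b, and these were seldom seen: Cd27 alone was seen in 1 of 11, 1 of 8 and 7 of 45 NK cells in these mice, Itgam alone in 3, 4 and 4, both in 0, 1 and 2, and neither in 7, 2 and 32.

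Genes lower in NK cells were led by T cell genes. Of 13 T cell genes outside the gate 5 were tested and 4 were called lower, a list closely tied to the Cd3 genes that the gate used. Bcl11b, a factor of T lineage commitment, was at 0 in all NK cells and at 276, 406 and 147 CPM in T cells, at least 8.72-fold lower in mice 4 and 6 (adjusted p = 1.20e-06), and Cd5 was at least 7.82-fold lower (adjusted p = 6.14e-06). Lat, an adaptor of the T cell receptor, had 1 UMI in NK cells of these mice (ratio 0.0300, 95% counting interval 0.00075 to 0.171), and Cd28 was the fourth (log2 difference -2.05 ± 0.62, adjusted p = 0.0270, and 0.170 without cells carrying RNA of another lineage). Of these 4 genes, Bcl11b and Lat were also called with mouse 5 added, and Cd5 and Cd28 were not. Outside this list, Ly6c2, an antigen of memory T cells and monocytes, had 27.8, 226 and 68.6 CPM in NK cells against 789, 241 and 611 CPM in T cells and was called lower (-3.67 ± 0.55, adjusted p = 8.66e-09). Ly6a, which encodes Sca-1, had 0, 56.5 and 39.2 CPM in NK cells against 164, 85.9 and 839 CPM in T cells (-4.61 ± 0.68, adjusted p = 4.43e-09). Ifi27l2a was the only called gene of 8 tested interferon-stimulated genes, whose median was -0.18, with 0, 28.3 and 137 CPM in NK cells against 529, 160 and 4345 CPM in T cells (-5.21 ± 0.50, adjusted p = 1.80e-20). Smpdl3a, an acid sphingomyelinase-like gene, was at least 6.12-fold lower (adjusted p = 3.20e-04) but was not called without cells that carried RNA of another lineage (adjusted p = 0.170). Checkpoint genes were sparse, with Pdcd1 and Btla at 0 in NK cells, and the 1 of 9 that could be tested, Ctla4, was lower (-2.59 ± 0.57, adjusted p = 4.43e-04). Ctla4 was not called with mouse 5 added. Ly6a and Ctla4 were not among the genes tested without cells carrying RNA of another lineage.

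Among the 10 highest differences were further Itga2, Klra4, Spry2 and Ccl4. Itga2 encodes CD49b, an integrin chain used to recognise conventional NK cells, and had 139, 254 and 265 CPM in NK cells against 0, 11.9 and 0 CPM in T cells, at least 31.4-fold higher in mice 4 and 6 (adjusted p = 1.29e-07). Spry2, a feedback inhibitor of receptor tyrosine kinase signaling, had 111, 56.5 and 284 CPM against 7.45, 21.5 and 11 CPM (4.26 ± 0.81, adjusted p = 1.70e-05). Spry2 was not called with mouse 5 added. Of 2 tested oligodendrocyte genes 1 was called higher and 0 lower, beside the 3 cells of mouse 6 described above. The dendritic cell gene Cd74 was called lower (-1.88 ± 0.54, adjusted p = 0.0175) and was not among the genes tested without cells carrying RNA of another lineage. With mouse 5 added Cd74 was not called. The part of RNA from other cells in the results was not tested beyond leaving out cells that carry it. Across all alternatives run there were between 0 and 101 calls, and 0 genes were called by edgeR without the mouse as a block, where 178 genes had an unadjusted p under 0.05. The genes called higher in mice 4 and 6, in mice 4, 5 and 6, by DESeq2 and without cells carrying RNA of another lineage were 6, namely Ccl4, Ccl5, Eomes, Irf8, Klre1 and Tyrobp, and those called lower in all 4 were 2, Ifi27l2a and Ly6c2. In the fit with every mouse Ccl5, Klre1, Tyrobp, Ifi27l2a and Ly6c2 were called as well, and Ccl4, Eomes and Irf8 were not.

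**Figure D4:**
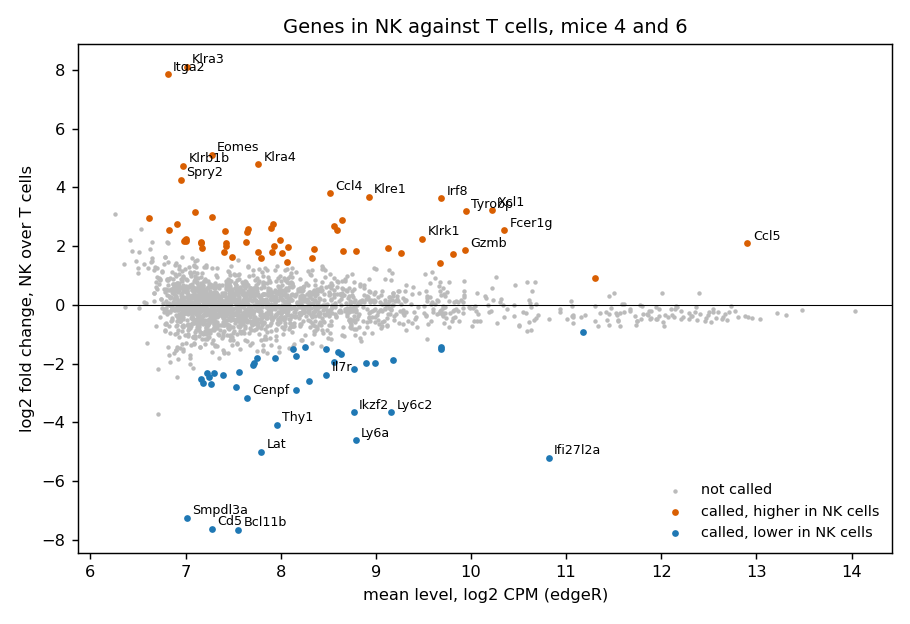
Each point is 1 of the 2128 genes tested between NK and T cells of mice 4 and 6, with its mean level (log2 CPM) on the horizontal axis and its fitted log2 difference, NK over T cells, on the vertical axis. The 57 genes called higher are orange and the 40 called lower are blue; genes with 0 UMIs in a class, such as Klra3 and Bcl11b, lie at fitted values that depend on the fit, and Ccl5 is the called gene of highest level.

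The 57 genes called higher were also looked up for the same promoter letters. Of the 43 with an entry, 10 held the RUNX letters within 250 bases before the start (23.3%) and 4 the T-box letters (9.30%), beside 9.91% and 8.22% of the 1715 tested genes with an entry. Of the 28 with an entry among the genes called lower, 5 held the RUNX letters (17.9%) and 4 the T-box letters (14.3%).

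Since most T cells lack a cytotoxic program, NK cells were also set against the T cells with at least 3 of the 6 NK genes, 7 in mouse 4, 8 in mouse 5 and 6 in mouse 6. This comparison was chosen after the data had been seen. Of 500 genes tested with edgeR, 2 were called. Ccl5 was higher in NK cells, with 8139, 11022 and 12253 CPM against 2407, 2695 and 1346 CPM in cytotoxic T cells (log2 difference 2.37 ± 0.28, adjusted p = 0.0092). Ly6c2 was lower, with 27.8, 226 and 68.6 CPM against 931, 1128 and 621 CPM (-3.04 ± 0.48, adjusted p = 0.0412). Neither gene overlapped between the classes, and 27.8 CPM in mouse 4 stands for 1 UMI.

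Cell cycle genes differed between the fits. Of 5 tested in mice 4 and 6, 4 were called lower in NK cells, with a median of -2.53: Mki67 (-1.94 ± 0.50, adjusted p = 0.00465), Birc5 (adjusted p = 0.0320), Ube2c (adjusted p = 0.0133) and Cenpf, with 3 UMIs in NK cells (ratio 0.103, 95% counting interval 0.0208 to 0.310). With mouse 5 added 0 of 3 tested were called. Without cells carrying RNA of another lineage 0 of these 4 were called, with adjusted p of 0.306 for Mki67, 0.319 for Ube2c and 0.179 for Cenpf and no test of Birc5. Mki67, the proliferation marker, had 306, 170.0 and 19.6 CPM in NK cells and 417, 40.6 and 342 CPM in T cells, so it was lower in NK cells of mice 4 and 6 and higher in those of mouse 5. A cell was counted as cycling when it had at least 2 of 8 cell cycle genes after thinning to 1000 UMIs, which 1 of 10 NK cells in mouse 4 had (10.0%), 0 of 8 in mouse 5, 0 of 40 in mouse 6 and 0 of 1 in mouse 7. Among T cells these shares were 12.8%, 0.800%, 5.88% and 10.0%. NK cells were lower in 4 of 4 mice, by a mean of -4.88 percentage points (SD 4.0, n = 4), and the two-sided exact sign-flip permutation test gave p = 0.125, the smallest that 4 mice allow. The value of mouse 7 rests on 1 NK cell, and the order of the classes within mice depended on the setting. With at least 3 of the 8 genes the mean was -1.09 percentage points, with NK cells higher by 2.31 points in mouse 4 and a difference of 0 in mouse 7. Without thinning NK cells were higher by 10.9 points in mouse 5, and without NK cells that had T cell RNA they were higher by 1.47 points in mouse 4, with a mean of -1.74. Thinned to 2000 UMIs the mean was above 0, at 0.514 points (p = 1.0 in the same exact permutation test), with NK cells higher by 15.8 points in mouse 5 and a difference of -11.9 points in mouse 6.

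Age could not be tested in NK cells as planned, because only mice 4 and 6 had at least 10 of them. With every mouse included, 0 of 587 genes were called between P43 and P70 by edgeR (0%), where 72 genes had an unadjusted p under 0.05, and DESeq2 called 0 with 15 under 0.05. Mouse 7 entered that fit with 1 cell. A fit of mouse 6 against mice 4 and 5, chosen after the data had been seen, called 42 of 815 genes higher in mouse 6 (5.15%) and 20 lower (2.45%), with a median log2 difference of 0.00 over all genes. Here P70 is mouse 6 alone, so age, mouse and library cannot be told apart. Only mice 4 and 5 inform the spread between mice, with 1 residual degree of freedom. The test pools spread across genes, so small p-values do not measure how well a difference would repeat in other mice.

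Effector genes were among those higher in the NK cells of mouse 6, with 4 of 7 tested granule genes called higher. Gzmb, at 306, 452 and 2196 CPM in mice 4, 5 and 6, had a log2 difference of 2.64 ± 0.40 (adjusted p = 2.39e-08). T cells were also highest in mouse 6 for Gzmb, with 141, 19.1, 416 and 274 CPM in mice 4, 5, 6 and 7, and whether NK and T cells differed in this was not tested. Srgn, which encodes the granule proteoglycan serglycin, had 528, 480.4 and 1774 CPM (1.92 ± 0.40, adjusted p = 8.03e-05), and Serpinb9 (1.67 ± 0.44, adjusted p = 0.00419) and Serpinb6b (1.55 ± 0.44, adjusted p = 0.00913) were the others. Of the cytokine list, Tgfb1 was higher (2.06 ± 0.55, adjusted p = 0.00458) and Ccl3 lower (-1.51 ± 0.48, adjusted p = 0.0274), although its 167, 1046 and 196 CPM in mice 4, 5 and 6 show that mouse 5 alone was high. Of 5 tested homing genes 2 were called higher, among them the chemokine receptor gene Ccr2 (1.93 ± 0.57, adjusted p = 0.0134), and of 4 tested immature genes 2 were, among them Emb. The interferon gamma receptor gene Ifngr1, with 417, 593 and 1392 CPM, was higher (1.57 ± 0.41, adjusted p = 0.00419). Irf8 was higher (1.36 ± 0.37, adjusted p = 0.00534), while Klf2, a factor of quiescence and recirculation, was lower (-1.49 ± 0.46, adjusted p = 0.0193) with 278, 1696 and 323 CPM, where mouse 5 alone was high. Of the 7 tested activating, 4 inhibitory and 5 Ly49 receptor genes 0 were called.

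Among the highest differences in mouse 6 were those of Dennd4a with 83.3, 141 and 1157 CPM in mice 4, 5 and 6 (3.45 ± 0.49, adjusted p = 3.76e-09), Emb, a cell adhesion protein gene, with 111, 56.5 and 745 CPM (3.23 ± 0.55, adjusted p = 1.43e-06), Mxd1 with 83.3, 84.8 and 647 CPM (3.02 ± 0.58, adjusted p = 1.95e-05) and Cxcl10, an interferon-induced chemokine, with 111, 0 and 412 CPM (2.94 ± 0.93, adjusted p = 0.0262). In T cells too mouse 6 was highest for Mxd1, with 52.1, 33.4, 224 and 78.2 CPM in mice 4, 5, 6 and 7, and for Cxcl10, with 7.45, 35.8, 361 and 39.1 CPM. For Dennd4a and Emb mouse 7 was highest in T cells, with 149, 76.3, 283 and 313 CPM and 290, 949, 614 and 1095 CPM. The 5 lowest differences follow. The replication factor gene Pclaf had 306, 650.0 and 0 CPM in mice 4, 5 and 6 (adjusted p = 2.37e-06), the topoisomerase gene Top2a had 806, 367 and 39.2 CPM (-3.72 ± 0.66, adjusted p = 3.32e-06), and the histone gene H1f5 had 556, 396 and 9.80 CPM (-5.22 ± 0.99, adjusted p = 1.79e-05). The tubulin gene Tuba1b (-3.46 ± 0.74, adjusted p = 1.47e-04) and the microtubule regulator gene Stmn1 (-2.86 ± 0.51, adjusted p = 3.32e-06) were lower as well. In each of these 5 genes the NK cells of mouse 6 lay below those of both P43 mice, and the T cells of mouse 6 lay between the T cells of the P43 mice. Few cells stood behind the P43 values: without thinning, 2 of 11 NK cells in mouse 4 and 1 of 8 in mouse 5 had at least 2 of the 8 cell cycle genes, and 1 cell of mouse 5 held 12335 of the 35385 UMIs of its NK cells. Of the cell cycle list 2 genes were tested in this fit and 1, Top2a, was called lower.

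Immediate early genes, which respond to activation and to tissue handling within minutes, were called lower in mouse 6 in 3 of 7 tested genes of a list that also holds stress genes. Between NK and T cells 0 of 9 tested genes of that list were called, with a median of -0.02. Fos levels in NK cells were 999.97, 2430 and 255 CPM in mice 4, 5 and 6 (-2.63 ± 0.44, adjusted p = 1.27e-06), Fosb 1222, 2346 and 343 CPM (-2.26 ± 0.42, adjusted p = 1.18e-05) and Dusp1 500.0, 961 and 108 CPM (-2.62 ± 0.52, adjusted p = 3.34e-05). T cells of the same libraries had 1057, 1822, 191 and 1682 CPM of Fos in mice 4, 5, 6 and 7, so mouse 6 was lowest in both classes and mouse 7 of the same age was not. The part of these genes' level in the other results of mouse 6 was not tested.

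**Figure D5:**
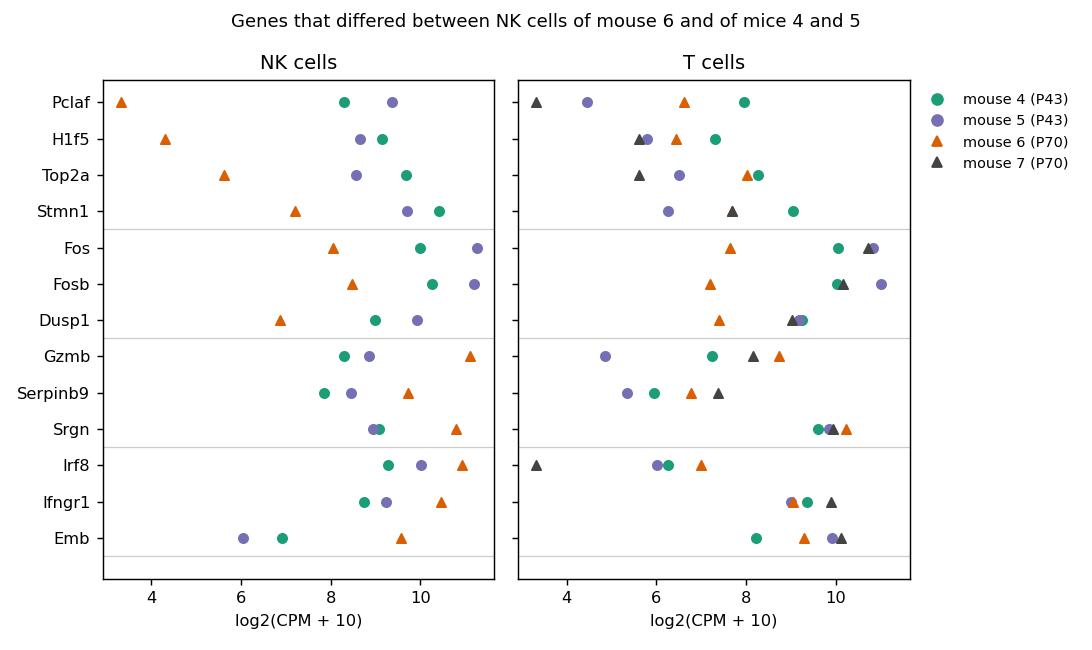
Level as log2(CPM + 10) in NK cells of mice 4, 5 and 6 (left) and in T cells of all 4 mice (right) for genes called between NK cells of mouse 6 and of mice 4 and 5; circles are P43 mice and triangles P70 mice. In NK cells Gzmb stands at 2196 CPM in mouse 6 against 306 and 452 CPM and Top2a at 39.2 CPM against 806 and 367 CPM, while T cells of mouse 6 are also the highest for Gzmb, at 416 CPM, and lie between the P43 mice for Top2a.

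The only NK cell of mouse 7 passed the gate with 1 UMI of Ncr1, 1 of Klrb1c and 2 of Nkg7. It had no UMI of Gzma, Prf1, Il2rb or Ccl5. Named after its values were seen, it carried 7 UMIs of Cd7, 5 of Emb, 4 of Rora, 3 of Cxcr6, 2 of Kit and 1 of Il7r, genes also known from innate lymphoid cells other than NK cells. It also had 4 UMIs of Fcer1g, 2 of Tyrobp, 2 of Klre1 and 1 of Klrk1, genes called higher in NK than in T cells above. Klrd1, Eomes and Tbx21, called likewise, were at 0 in it. Of the type 1 innate lymphoid cell list it had Cxcr6, Tmem176a and Tmem176b and no UMI of Itga1, Cd200r1, Inpp4b, Itgae or Gpr183. At its depth of 2092 UMIs, 3 UMIs correspond to 1434 CPM, and genes at 0 in it may lie anywhere under that level.

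Ligands for NK receptors were looked up in the other cells of the tumors. B2m, the light chain of MHC class I, had 43.7, 51.2, 157 and 73.0 CPM in reporter-positive tumor cells of mice 4, 5, 6 and 7, against 557, 981, 1533 and 1590 CPM in endothelial cells. The tumor cells lay below the endothelial cells in every mouse. The MHC class I gene H2-K1 had 17.1, 11.6, 82.8 and 13.3 CPM in the tumor cells, and of the ligands of NKG2D, H60b had 1.81, 0.619, 0.217 and 1.29 CPM and Raet1d 0.821, 0.413, 0.217 and 0.662 CPM there. Ulbp1 had 0.328, 0, 1.08 and 1.06 CPM, Raet1e 0.164, 0.413, 0.217 and 0.144 CPM and H60c 0 in all mice, from 0 to 45 UMIs of any of the 5 in a mouse, and Raet1a, Raet1b and Raet1c were not analysed here. Cxcl16, the ligand of Cxcr6, was highest in C1q-positive myeloid cells, with 385, 351, 1023 and 585 CPM, and Il15, a survival factor of NK cells, had 19.6, 17, 9.08 and 6.93 CPM in them. These levels are given without a test.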

How the data were processed

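Dissociated tumors were profiled with 10x Chromium 3′ v3.1 chemistry. Per the labels, the authors made UMI counts per gene and barcode with Cell Ranger 6.0.2 on mm10, and these deposited counts were used without other normalization. Kept barcodes had at least 200 genes, at most 40000 UMIs and under 25% of them mitochondrial, over genes seen in at least 3 barcodes of a library. No doublet caller was run. Instead, cells with at least 3 genes of another lineage were left out in an alternative. Counts were summed per mouse and class and tested with edgeR 4.0.16 (TMM, filterByExpr, quasi-likelihood, Benjamini-Hochberg adjusted p under 0.05) in R 4.3.3, with DESeq2 1.42.0 as an alternative. In data simulated with 200 genes changed 4-fold, the fit of NK against T cells recovered 29.6% of the 189 of these that passed the filter in mice 4 and 6 (2203 genes tested) and 83.9% of 193 in mice 4, 5 and 6 (2212 genes tested). The members and gene lists were chosen with earlier results of these data known. Genes named were the gate genes, list members of high level or called, and the 10 highest and 10 lowest called differences between NK and T cells (5 each for mouse 6). Each mouse gave 1 library. Gene positions are from GENCODE and promoters from RefSeq (GRCm38.p6). Some results of named genes are not reported here.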

Additional observations from a re-analysis of the deposited data

How the results depend on the processing

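The differences in NK share between P70 and P43 kept their direction under the other gates, filters and thinning (0.230 to 0.567 percentage points of kept cells and 9.18 to 18.3 of NK plus T cells), but leaving out 1 mouse gave -0.412 to 1.21 and -5.97 to 34.2, with the negative values without mouse 6. The difference in cycling share was 0.514 percentage points when cells were thinned to 2000 UMIs, and -6.23 to -3.17 with 1 mouse left out. Of genes that differed between NK and T cells, 97 were called in mice 4 and 6, 12 by DESeq2, 29 without cells with RNA of another lineage, 54 under 10% mitochondrial UMIs, 58 at up to 60000 UMIs, 60 in mice 4, 5 and 6, 35 in every mouse, 2 against cytotoxic T cells and 0 without the block by mouse. The fits of mice 4, 5 and 6 gave 7 to 97 calls with 1 mouse left out (97 without mouse 5, which leaves mice 4 and 6), and across them the log2 differences of Mki67 and Birc5 ran from -1.94 to 0.33 and from -2.53 to 0.87, above 0 without mouse 6. Genes that differed with age numbered 0 in all 4 mice, 2 there with at least 2 NK genes and 2 under 10% mitochondrial UMIs. They numbered 62 in mice 4, 5 and 6, and there, since the cell of mouse 7 is lost, 16 with at least 4 NK genes and 9 without cells with T cell RNA, and 0 to 62 with 1 mouse left out (62 without mouse 7). The causes were not tested. Of 504 values of 50 named genes under alternatives other than filters over all features, which changed no call, and leaving mouse 5 out of mice 4, 5 and 6, which is the fit of mice 4 and 6 again, 286 stayed on their side of the threshold, 215 lost their call, 1 gained it and 2 changed sign. The fits of NK against T cells with at least 4 NK genes, without cells with T cell RNA and with cytotoxic T cells at 10 cells a mouse could not be fitted, nor could mice 4 and 6 with either left out. The settings with mice of at least 5 cells were chosen after seeing the data. For age, no paired analysis was possible because replicate numbers only name the mice within an age; NK and T cells were paired within mice. The depth of 65 cells limits every level: 3 UMIs correspond to 83.3, 84.8 and 29.4 CPM in mice 4, 5 and 6.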
